A study of Mus musculus with 8 samples.

Results

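The comparison described here is the effect of glucose concentration on C2C12 myotubes, averaged over cells with and without Baf60c knockdown. C2C12 is an immortal line of mouse myoblasts, which were differentiated into myotubes for this study. A retrovirus delivered either an shRNA against Baf60c or a control shRNA (Scrb in the labels). Baf60c, whose gene is now named Smarcd3, belongs to the BAF complex, which moves nucleosomes. The myotubes were kept for 12 h in 10 mM or 1 mM glucose, and Affymetrix Mouse Gene ST 2.1 arrays read their RNA. All 8 of the 8 arrays in the series entered the comparison. They were 4 at 10 mM (2 knockdown and 2 control) against 4 at 1 mM (2 knockdown and 2 control). The average effect is the glucose term of a linear model, fitted in limma, that has shRNA as its other term and reads 1 probe set per gene. Cells of every group carried a virus, and all are of 1 line. The p-values therefore measure the spread between cultures of that line, which the labels call biological replicates.

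Muscle cells take up glucose, phosphorylate it and use it for energy, for the sugar chains of secreted and membrane proteins, and for amino acids and nucleotides. Cells short of glucose are known to switch on the integrated stress response, in which the transcription factor ATF4 raises genes for amino acid supply, and the unfolded protein response, which raises chaperones of the endoplasmic reticulum (ER). When glucose is plentiful, the sensor MondoA and its partner Mlx enter the nucleus and raise Txnip, a brake on glucose uptake. Array values are log2 expression values, given as knockdown replicates 1 and 2 and then control replicates 1 and 2. Changes are the level at 10 mM minus that at 1 mM on this scale, each with its standard error where one follows a ± sign (n = 4 arrays per glucose level). Whether 10 mM moved a gene one way or 1 mM moved it the other way cannot be told apart.

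Of 13308 genes tested, limma called 5158 (38.8%) at a Benjamini-Hochberg adjusted p under 0.05, 2806 higher at 10 mM (21.1%) and 2352 lower (17.7%). A change of at least 2-fold was seen for 835 of the higher genes (6.27% of those tested) and 484 of the lower ones (3.64%), together 9.91%. The 10 mM and 1 mM arrays did not overlap for 2392 genes in the higher direction (18.0%) and for 2226 in the lower direction (16.7%). With so large a background, the share of a gene group that was called is read below against these percentages. The median change of all tested genes was 0.01 on the log2 scale. No detection call accompanies the values, so where the mean of 1 glucose level was under a log2 value of 3 (called dim below) the lower level may be background and no fold is given. Calls were less frequent at low levels, at 20.2% of genes with a mean log2 value under 4 and 42.9% to 48.2% in the brighter classes.

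Replicate arrays correlated at 0.987 to 0.99 across genes and arrays of different groups at 0.939 to 0.984. The knockdown target was read through a probe set that it shares with its neighbour Chpf2. It read 3.90 and 4.49 in knockdown and 6.27 and 6.09 in control cells at 10 mM, against 3.01 and 2.77 in knockdown and 5.62 and 5.4 in control cells at 1 mM. With glucose it was higher by 0.99 ± 0.18 (SE; adjusted p = 0.00297, limma), so the target signal itself moved with glucose, and its part in other changes was not tested. All 7 myotube markers (Acta1, Ckm, Myh3, Myog, Des, Tnnt3 and Mymk) were tested, with a median level of 10.33 at 10 mM and 9.66 at 1 mM. Both group means were under a log2 value of 3 for 7 of 9 macrophage, 8 of 9 endothelial, 7 of 8 neural, 6 of 8 cartilage and bone and 5 of 8 adipocyte markers. The mean of the macrophage list ran from 2.5 to 2.76 over the 10 mM arrays and from 2.73 to 2.89 over the 1 mM arrays. In whole cultures fewer cells of a kind and less RNA per cell cannot be told apart.

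**Figure D1:**
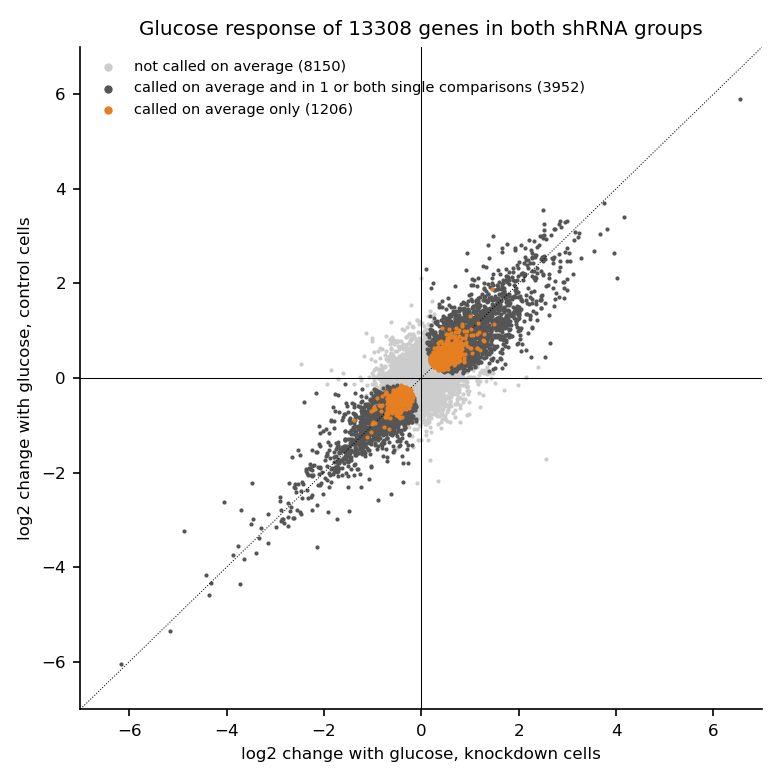
Each point is 1 of the 13308 tested genes, placed by its log2 change with glucose (10 mM minus 1 mM) in knockdown cells on the x axis and in control cells on the y axis. Dark points are the 3952 genes called on average and in 1 or both of the single comparisons, orange points the 1206 called on average only, and grey points the 8150 not called on average; the dotted line marks equal changes.

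Averaging over both shRNA groups called genes that neither group showed alone. Of the 5158 genes, 2332 (45.2%) were also called in the same direction within knockdown cells and within control cells, each set 2 arrays against 2, and 1620 (31.4%) in exactly 1 of them. A further 1206 (23.4%) were called in neither, 622 higher and 584 lower. These changes were small, with a median size of 1.32-fold, against 2.01-fold for the genes called in both. All 5158 genes had the same sign in knockdown and in control cells, as the plot of both responses shows. Opposite responses give a small average and a large error in this model. The shared sign thus follows largely from the calling and does not measure how alike the responses are. The median standard error was 0.128, against 0.173 within 1 shRNA group, so a 95% interval reached 0.293 to either side. The single comparisons called 3342 genes in knockdown cells (25.1%) and 3372 in control cells (25.3%). The difference between the responses, tested as an interaction in limma, was called for 0 genes, with 1049 (7.88%) at an unadjusted p under 0.05. With an intensity trend in the prior variance the same test called 1 gene, the thrombospondin gene Thbs1, whose change was 1.07 higher in knockdown than in control cells (adjusted p = 0.0176). Without the trend its adjusted p was 0.336, and it is named here for these values.

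Genes called on average alone are named here by smallest p, which favours genes that changed almost equally in knockdown and control cells. For 2 of them both changes are given. Oas1b, a member of the interferon-induced oligoadenylate synthetase family, read 2.28 and 2.29 in knockdown and 2.13 and 2.37 in control cells at 10 mM, against 3.63 and 2.82 in knockdown and 3.53 and 2.90 in control cells at 1 mM. The 10 mM and 1 mM arrays did not overlap, and the 10 mM values lay in a range near the lower end of the scale. The average change was -0.95 ± 0.20 (adjusted p = 0.00569), made up of -0.94 in knockdown and -0.96 in control cells. The zinc finger gene Zfp599 rose by 0.91 ± 0.20, with 0.91 in knockdown and 0.91 in control cells. Among the other lower genes were the chaperone partner gene Dnajc2 (-0.66), the lysosomal enzyme gene Naglu (-0.56), the DNA polymerase delta subunit gene Pold2 (-0.55) and the pro-apoptotic gene Bbc3 (-0.55, PUMA). Among the other higher genes were Cped1 (0.59), Ppp1r13l (0.61, an inhibitor of p53-family activity), Raph1 (0.42, an actin regulator) and Sccpdh (0.41). A further 424 genes were called in knockdown cells, in control cells or in both, and not on average. In 6 of them, named after their values were seen, the single calls were opposite. These were Macrod1, Myh7b, Rabggtb, Slc41a3 and the unnamed transcripts 1810014B01Rik and B330016D10Rik, with average changes from -0.35 to 0.10 and interaction adjusted p-values from 0.235 to 0.4.

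Txnip showed the largest rise of all genes tested. Its promoter in RefSeq (GRCm38.p6), the 250 bases before the start, is printed because it holds a carbohydrate response element (ChoRE, the paired E-box-like repeat that MondoA and Mlx bind), marked in capitals, on the coding strand at chr3:96557707-96557956.
Txnip: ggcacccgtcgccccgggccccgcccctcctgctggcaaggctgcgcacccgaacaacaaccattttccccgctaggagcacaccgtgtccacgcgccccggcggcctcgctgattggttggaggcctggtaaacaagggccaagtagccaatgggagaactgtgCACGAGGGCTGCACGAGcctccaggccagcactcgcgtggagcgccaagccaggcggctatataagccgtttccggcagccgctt
The letters searched on both strands were CACGNG and CNCGNG with 5 bases between them, and the match starts at position -85. They were found in 0.841% of the 10345 tested genes with a promoter in the table. Txnip read 10.36 and 10.51 in knockdown and 9.97 and 9.77 in control cells at 10 mM, against 3.55 and 4.24 in knockdown and 4.17 and 3.79 in control cells at 1 mM. No array of one glucose level came near one of the other. The change was 6.22 ± 0.20 (95% interval 5.77 to 6.67, 74.4-fold, adjusted p = 6.4e-07). Its paralog Arrdc4, another arrestin that limits glucose transport, was dim, at 2.89 to 3.18 on the 10 mM and 2.39 to 2.92 on the 1 mM arrays. These ranges overlapped, and the change was 0.46 ± 0.14 (adjusted p = 0.0312), a call lost without either knockdown array at 10 mM or at 1 mM, control replicate 1 at 1 mM or control replicate 2 at 10 mM (adjusted p up to 0.0871). Arrdc3 rose by 0.44 and the early gene Klf10 by 0.51, while Arrdc2 (-0.06) and Klf11 (0.25) did not pass the test. The sensor genes and the partner gene Mlx were lower at 10 mM. Mlxip, which encodes MondoA, fell by 0.40 and Mlx by 0.38. In the same list Max fell by 0.55 and the repressor gene Mnt by 0.32. The Mlxip call was also lost without single arrays (adjusted p up to 0.0807). Mlxipl, which encodes ChREBP, was at -0.64 with 10 mM arrays of 1.72 to 2.34. In all, 4 of 11 members of this list rose and 5 fell, at a median of -0.06.

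Entry of glucose into the cell showed smaller changes. Hk2, the muscle hexokinase, read 8.15 and 7.95 in knockdown and 8.18 and 8.17 in control cells at 10 mM, against 8.86 and 8.89 in knockdown and 9.06 and 8.88 in control cells at 1 mM. The groups did not overlap and the fall was 1.75-fold (-0.81 ± 0.09, adjusted p = 0.000234). Hk1 went the other way at 0.69. The basal glucose transporter gene Slc2a1 fell by 0.46 (adjusted p = 0.00641), with overlapping arrays, and a dim second probe set of it was at -0.29 (adjusted p = 0.0769). Slc2a3 rose by 0.53, and the insulin-responsive transporter gene Slc2a4 was at -0.34 (adjusted p = 0.518). The lactate transporter genes divided, with Slc16a1 at -1.06 and Slc16a3 at 0.87.

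**Figure D2:**
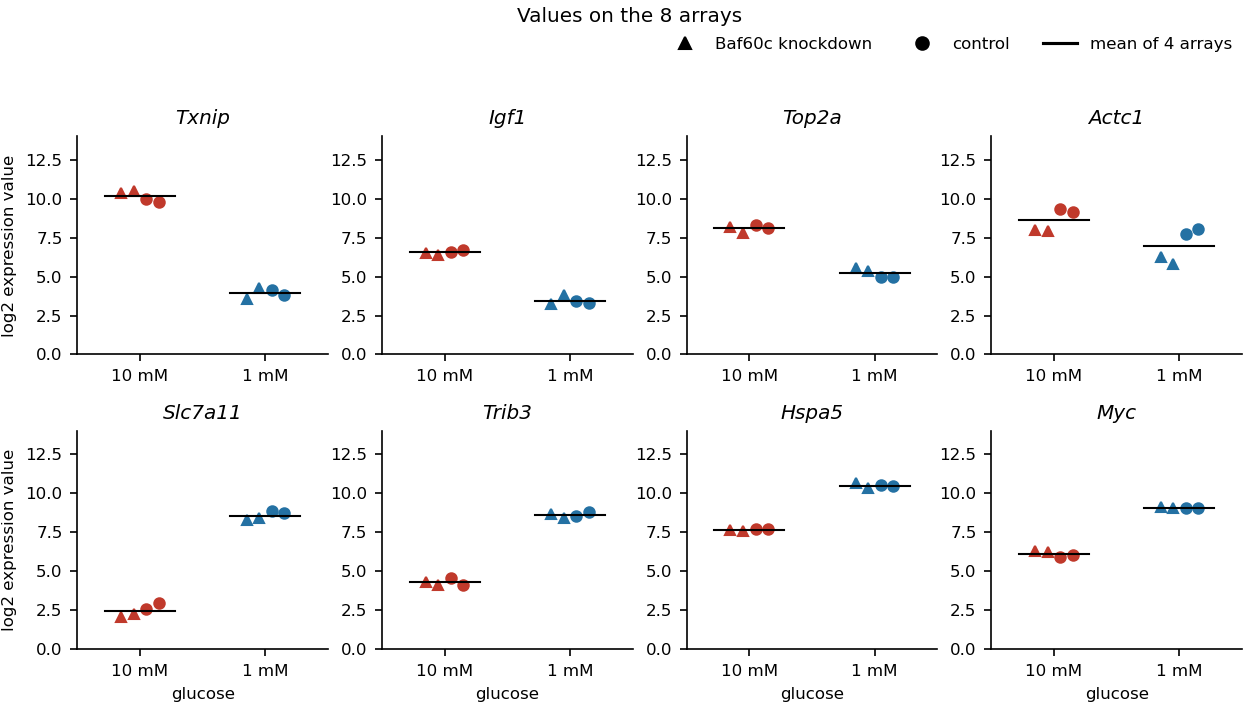
Log2 expression values of 8 genes on the 8 arrays, 10 mM at the left of each panel and 1 mM at the right, with triangles for knockdown, circles for control and a bar at the mean of 4 arrays. Txnip, Igf1 and Top2a were higher and Slc7a11, Trib3, Hspa5 and Myc lower at 10 mM with no overlap, while for Actc1 the knockdown arrays at 10 mM overlapped the control arrays at 1 mM.

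The list of ATF4 and the integrated stress response, which holds regulators as well as targets, was lower at 10 mM in 19 of 23 members. Of the rest 0 were higher and 4 did not pass the test, and the median was -1.27. The largest fall in log2 value of all genes tested was that of Slc7a11, which imports cystine in exchange for glutamate. Its promoter holds 2 copies of TGATGNAA, the core of the C/EBP-ATF response element (CARE) that ATF4 binds, and is printed with those of Asns and Chac1 because the 3 genes fell together. Capitals mark the core on either strand, and all 3 come from RefSeq (GRCm38.p6), at chr3:50443614-50443863 (minus strand) for Slc7a11, chr6:7693210-7693459 (minus strand) for Asns and chr2:119350992-119351241 (plus strand) for Chac1.
Slc7a11: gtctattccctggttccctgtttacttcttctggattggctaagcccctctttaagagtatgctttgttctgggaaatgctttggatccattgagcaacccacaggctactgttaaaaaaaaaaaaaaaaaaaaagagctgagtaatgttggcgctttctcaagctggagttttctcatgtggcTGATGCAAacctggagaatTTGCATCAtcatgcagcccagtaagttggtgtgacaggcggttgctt
Asns: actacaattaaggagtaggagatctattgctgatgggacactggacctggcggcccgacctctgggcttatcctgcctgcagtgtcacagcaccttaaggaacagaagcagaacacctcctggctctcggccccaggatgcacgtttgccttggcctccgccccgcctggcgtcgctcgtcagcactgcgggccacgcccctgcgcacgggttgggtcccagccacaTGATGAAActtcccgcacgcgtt
Chac1: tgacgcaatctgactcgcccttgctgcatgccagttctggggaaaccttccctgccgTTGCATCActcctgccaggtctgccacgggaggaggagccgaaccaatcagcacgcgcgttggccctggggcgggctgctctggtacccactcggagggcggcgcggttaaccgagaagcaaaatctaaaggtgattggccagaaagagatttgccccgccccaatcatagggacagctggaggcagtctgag
Slc7a11 read 2.08 and 2.28 in knockdown and 2.57 and 2.95 in control cells at 10 mM, against 8.28 and 8.42 in knockdown and 8.84 and 8.76 in control cells at 1 mM. The change was -6.11 ± 0.11 (adjusted p = 6.72e-08), with dim 10 mM arrays. A dim second probe set of the gene was at -0.49 (adjusted p = 0.123). Asns, asparagine synthetase, fell 6.91-fold and Chac1, which breaks down glutathione, 7.63-fold.

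Regulators of the stress response, some of them members of the same list, also fell. Trib3, a pseudokinase that ATF4 induces, read 4.33 and 4.13 in knockdown and 4.54 and 4.11 in control cells at 10 mM, against 8.66 and 8.43 in knockdown and 8.55 and 8.77 in control cells at 1 mM. The 8 arrays formed 2 narrow groups by glucose, and the change was -4.33 ± 0.13 (adjusted p = 5.01e-07). Ddit3, the transcription factor CHOP, fell 10.2-fold, Atf3 9.96-fold, Atf5 5.37-fold and Ppp1r15a, which restores translation by dephosphorylating eIF2, 7.54-fold. The knockdown and control responses differed by 0.02 for Trib3 and 0.04 for Ddit3. For the other regulators named, the knockdown minus control difference was 0.36 for Atf3, 0.12 for Ppp1r15a and -0.08 for Atf5.

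Genes for making amino acids and carrying one-carbon units fell in 10 of 14 members, with 0 higher and a median of -1.27. Shmt2, the mitochondrial serine hydroxymethyltransferase, read 7.28 and 7.23 in knockdown and 7.33 and 7.32 in control cells at 10 mM, against 10.04 and 9.75 in knockdown and 10.26 and 10.32 in control cells at 1 mM. The 10 mM arrays lay closer together than the 1 mM arrays, and the fall was 6.98-fold (-2.80 ± 0.11). Aldh1l2 fell 8.35-fold and Mthfd2 6.49-fold, both in mitochondrial folate metabolism. Psph and Phgdh of serine synthesis fell 4.51-fold and 4.50-fold. Cth, the last step to cysteine, fell 22.3-fold (-4.48 ± 0.09, adjusted p = 7.13e-08), and Bcat1, which transfers the amino group of branched-chain amino acids, 11.7-fold.

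Amino acid transporters divided, with 11 of 18 lower and 5 higher. Besides Slc7a11, the cationic carrier gene Slc7a1 fell 6.45-fold, the large neutral carrier gene Slc7a5 5.50-fold and its partner Slc3a2 5.12-fold. Slc1a3, a glutamate carrier, went against the majority. It read 6.53 and 6.71 in knockdown and 6.45 and 6.42 in control cells at 10 mM, against 4.67 and 4.65 in knockdown and 5.02 and 4.87 in control cells at 1 mM. The rise was 3.30-fold (1.72 ± 0.12, adjusted p = 1.98e-05) with no overlap. The taurine carrier gene Slc6a6 (0.77) and the neutral carrier gene Slc43a2 (0.81) also rose.

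The enzymes that load amino acids onto tRNA differed between compartments. Of the cytosolic synthetases 16 of 18 fell and 0 rose, at a median of -1.48. Of the mitochondrial ones 6 of 16 fell and 1 rose, at a median of -0.29. In that list 43.8% were called, near the 38.8% of all genes, and 37.5% were lower, against 17.7%. Wars, the cytosolic enzyme for tryptophan, read 8.14 and 7.97 in knockdown and 8.15 and 8.36 in control cells at 10 mM, against 10.45 and 10.53 in knockdown and 10.67 and 10.25 in control cells at 1 mM. No array overlapped, and the change was -2.32 ± 0.12 (4.99-fold). Iars fell 3.73-fold, Lars 3.43-fold and Nars 3.27-fold. Their mitochondrial counterparts moved less, with Ears2 at -1.11, Yars2 at -0.59 and Fars2 higher at 0.48. The gap between the lists was not tested.

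Chaperones and folding enzymes of the ER were lower at 10 mM in 23 of 25 members, with 0 higher and a median of -1.44. The promoters of Hspa5 and Dnajc3 are printed because both hold the ER stress response element (ERSE), a CCAAT box and a CCACG box separated by 9 bases, which is bound by ATF6 together with NF-Y. Capitals mark it, and the sequences are from RefSeq (GRCm38.p6), plus strand, at chr2:34771840-34772089 for Hspa5 and chr14:118937682-118937931 for Dnajc3.
Hspa5: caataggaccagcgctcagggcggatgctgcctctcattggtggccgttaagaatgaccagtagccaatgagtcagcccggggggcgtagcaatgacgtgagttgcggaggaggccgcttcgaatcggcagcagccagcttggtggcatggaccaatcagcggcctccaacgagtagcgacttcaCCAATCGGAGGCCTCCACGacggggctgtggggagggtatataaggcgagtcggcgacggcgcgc
Dnajc3: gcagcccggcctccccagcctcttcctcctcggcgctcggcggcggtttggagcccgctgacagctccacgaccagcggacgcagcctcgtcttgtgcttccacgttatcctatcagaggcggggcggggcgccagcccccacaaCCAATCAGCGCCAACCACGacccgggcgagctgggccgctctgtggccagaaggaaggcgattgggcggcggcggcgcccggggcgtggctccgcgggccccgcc
Hspa5, the main luminal chaperone BiP, read 7.62 and 7.57 in knockdown and 7.71 and 7.72 in control cells at 10 mM, against 10.65 and 10.32 in knockdown and 10.54 and 10.45 in control cells at 1 mM. The fall was 7.13-fold (-2.83 ± 0.10, adjusted p = 1.32e-06), with the 10 mM arrays closer together than the 1 mM ones. Dnajc3, a co-chaperone and eIF2 kinase inhibitor, fell 4.29-fold. Sdf2l1, another luminal partner of BiP, read 5.4 to 5.76 at 10 mM and 9.44 to 10.03 at 1 mM and fell 19.7-fold. Hyou1 fell 6.75-fold, Creld2 5.61-fold and the disulfide isomerase gene Pdia6 3.17-fold.

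Other lists of the ER and the secretory pathway had smaller median changes. The degradation machinery of the ER (ERAD) fell in 12 of 17 members at a median of -0.47. Herpud1, which assembles it, read 8.43 and 8.41 in knockdown and 8.50 and 8.85 in control cells at 10 mM, against 10.69 and 10.71 in knockdown and 10.63 and 10.59 in control cells at 1 mM. The groups were separate and the fall was 4.31-fold. The ubiquitin ligase gene Syvn1 fell 3.56-fold and its partner Sel1l 3.08-fold. Enzymes that build and transfer N-linked sugar chains fell in 18 of 31 members and rose in 2, at a median of -0.44, with Magt1 at -1.43, Alg12 at -1.30 and Alg2 at -1.24. The exceptions were Dpm1 (0.52) and Ost4 (0.30). Protein translocation and vesicle coats fell in 16 of 37 and rose in 3, at a median of -0.22. The signal peptidase subunit gene Spcs2 was at -1.12 and the translocon gene Sec61a1 at -0.88. Kdelr3, a receptor that returns escaped chaperones to the ER, rose by 0.48, Kdelr1 by 0.34 and the coatomer gene Copb2 by 0.38.

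The hexosamine pathway turns glucose into the sugar donor UDP-GlcNAc, used for N-linked chains and for O-GlcNAc marks on nuclear and cytosolic proteins. Of 12 members 4 fell and 1 rose, so that 41.7% were called, near the 38.8% of all genes. Gnpnat1 fell 3.0-fold, Uap1l1 2.03-fold and Pgm3 1.42-fold. The member that rose was Oga, the enzyme that removes O-GlcNAc. It read 8.60 and 8.56 in knockdown and 8.48 and 8.58 in control cells at 10 mM, against 7.12 and 7.09 in knockdown and 7.48 and 7.48 in control cells at 1 mM. It rose 2.4-fold (1.26 ± 0.11, adjusted p = 5.76e-05), and a dim second probe set was at 0.27 (adjusted p = 0.163).

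**Figure D3:**
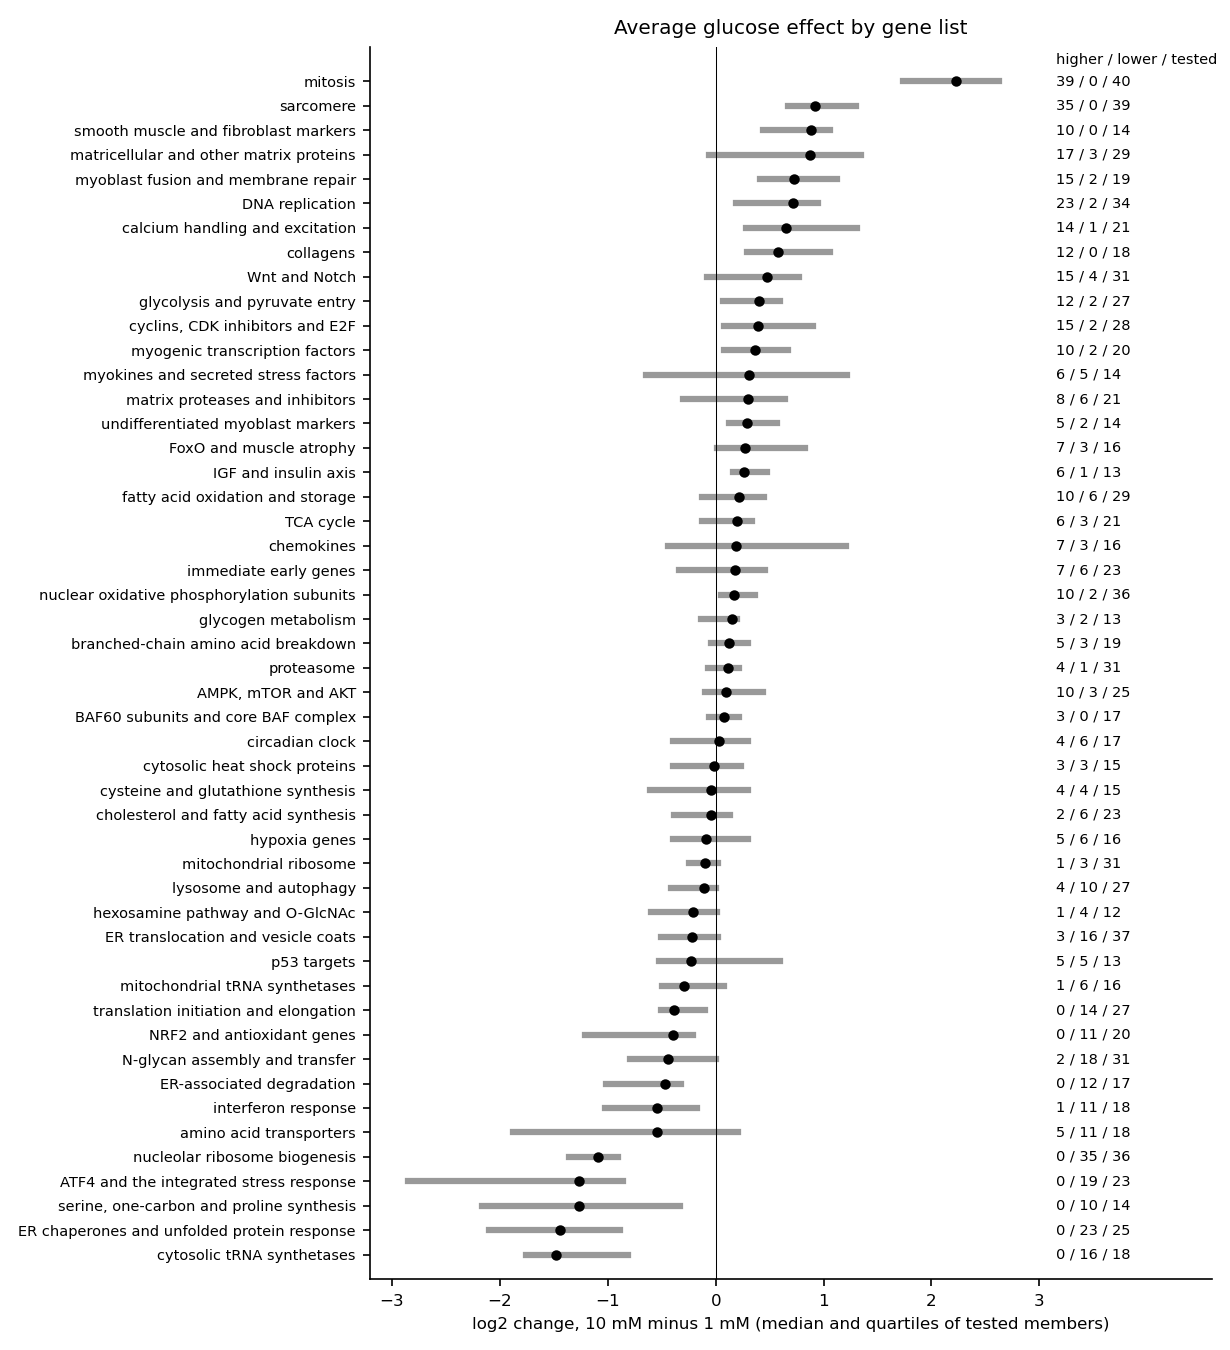
Median log2 change (10 mM minus 1 mM, points) and quartiles (grey bars) of the tested members of each gene list with at least 12 tested members, ordered by the median. The numbers at the right count members called higher, called lower and tested; mitosis stands at 2.23 at one end and the cytosolic tRNA synthetases at -1.48 at the other.

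Nucleolar factors for making ribosomes fell in 35 of 36 members, with 0 higher and a median of -1.09, and in 33 the arrays did not overlap. Nop56, a core protein of the RNA methylation particles, read 7.42 and 7.47 in knockdown and 7.62 and 7.39 in control cells at 10 mM, against 8.96 and 8.81 in knockdown and 9.05 and 8.99 in control cells at 1 mM. The fall was 2.78-fold, and the 2 dimmer probe sets of the gene were at -1.46 (adjusted p = 0.00246) and -0.72 (adjusted p = 0.00726). Gnl3, the nucleolar GTPase nucleostemin, fell 3.55-fold, Heatr1 2.94-fold and Nop58 2.85-fold. Translation factors fell in 14 of 27 members with 0 higher, at a median of -0.39, among them Eif2b3 (-1.0), Eif1a (-0.98) and Eif3c (-0.95).

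Myc, a transcription factor known to drive ribosome production, fell with them. It read 6.32 and 6.23 in knockdown and 5.89 and 6.06 in control cells at 10 mM, against 9.11 and 9.08 in knockdown and 9.04 and 9.04 in control cells at 1 mM. The 1 mM arrays were almost equal, and the fall was 7.69-fold (-2.94 ± 0.10, adjusted p = 6.78e-07). The Mxd factors, which compete with Myc for Max, rose, with Mxd4 at 1.0, Mxi1 at 0.83 and Mxd1 at 0.62. A second probe set of Mxi1 was at 0.53 (adjusted p = 0.0717).

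Antioxidant genes of the NRF2 programme fell in 11 of 20 members, with 0 higher and a median of -0.40. Hmox1, heme oxygenase, read 7.07 and 6.98 in knockdown and 7.09 and 6.94 in control cells at 10 mM, against 9.39 and 9.40 in knockdown and 9.08 and 8.81 in control cells at 1 mM. It fell 4.44-fold with no overlap. Gsta4 fell 3.71-fold, the peroxiredoxin repair gene Srxn1 3.70-fold and the thioredoxin reductase gene Txnrd1 3.0-fold. In glutathione synthesis and use, 4 of 15 fell and 4 rose. The ligase subunit genes Gclm and Gclc fell 3.58-fold and 2.87-fold, while the peroxidase genes Gpx3 and Gpx8 rose 1.85-fold and 1.65-fold. The pentose phosphate pathway, which supplies NADPH, fell in 4 of 8 members and rose in 1, with Pgd at -1.17 and Taldo1 at -0.69 against H6pd at 0.72.

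Interferon response genes fell in 11 of 18 members and rose in 1, at a median of -0.54. Usp18, which damps interferon signalling, read 3.81 and 4.14 in knockdown and 3.61 and 3.99 in control cells at 10 mM, against 6.07 and 6.4 in knockdown and 5.51 and 5.15 in control cells at 1 mM. The groups did not overlap and it fell 3.71-fold. Ifit1 fell 3.13-fold, Oasl2 2.25-fold and Irf9 2.07-fold. Irf1 rose 2.09-fold. Of heat shock proteins 3 of 15 rose and 3 fell, so that the share called was near the 38.8% of all genes. The lower ones included Hspd1 (-1.34) and Hspe1 (-0.63), the mitochondrial chaperonin.

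Mitosis genes rose together, with the highest median of the lists. Of 40 members, 39 were higher and 0 lower, at a median of 2.23, with 39 free of overlap between 10 mM and 1 mM arrays. The promoter of Top2a is printed because it holds the cell cycle genes homology region (CHR, letters TTTGAA), bound by the DREAM and MuvB complexes that time mitotic genes. Capitals mark it on either strand, and the sequence is from RefSeq (GRCm38.p6) at chr11:99024190-99024439, minus strand.
Top2a: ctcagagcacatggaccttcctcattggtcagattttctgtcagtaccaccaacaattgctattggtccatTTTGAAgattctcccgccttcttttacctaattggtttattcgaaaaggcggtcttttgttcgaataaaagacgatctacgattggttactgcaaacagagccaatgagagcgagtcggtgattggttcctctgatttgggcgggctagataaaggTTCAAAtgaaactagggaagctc
Top2a, the topoisomerase that untangles sister chromatids, read 8.18 and 7.82 in knockdown and 8.31 and 8.14 in control cells at 10 mM, against 5.56 and 5.38 in knockdown and 4.95 and 4.99 in control cells at 1 mM. It rose 7.41-fold (2.89 ± 0.17, adjusted p = 8.57e-06). Cenpf of the kinetochore rose 8.52-fold, the spindle pole gene Aspm 8.16-fold, the checkpoint kinase gene Bub1 6.83-fold and the kinase gene Aurkb 5.97-fold. The spindle gene Nusap1 was at 2.85, with dim 1 mM arrays.

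Of 34 DNA replication genes 23 rose and 2 fell, at a median of 0.72. Rrm2, the regulated subunit of ribonucleotide reductase, read 7.32 and 7.22 in knockdown and 7.18 and 7.27 in control cells at 10 mM, against 5.19 and 5.41 in knockdown and 5.27 and 5.02 in control cells at 1 mM. It rose 4.07-fold. Tk1 rose 3.38-fold, the polymerase gene Pole 2.71-fold and the ligase gene Lig1 2.50-fold. The 2 that fell were Dut, which keeps uracil out of DNA (-1.04), and the licensing factor gene Cdt1 (-0.69). Of 31 replication-dependent histone genes 14 had a single-gene probe set and 7 of these passed the filter on dim genes. Of the 7 tested, 5 rose and 0 fell, with H1f5 at 2.73 from a dim level at 1 mM. Histone genes are near-identical copies, so these probe sets may read more than 1 gene.

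The regulators of the cycle did not all move with it. Of cyclins, their inhibitors and E2F factors 15 of 28 rose and 2 fell. E2f8 rose 5.09-fold, E2f2 4.79-fold, Ccnd3 2.73-fold and the CDK inhibitor gene Cdkn2d 2.98-fold. Ccnd2 read 7.52 and 7.36 in knockdown and 7.57 and 7.90 in control cells at 10 mM, against 9.25 and 9.22 in knockdown and 9.34 and 9.25 in control cells at 1 mM. This D-type cyclin fell 3.20-fold (adjusted p = 1.48e-05), and its usual partner Cdk4 was at -0.33. Targets of p53 divided evenly, with 5 of 13 higher and 5 lower, among them Sesn1 (1.34), Fas (1.33), Tigar (-0.99) and Zmat3 (-0.69).

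**Figure D4:**
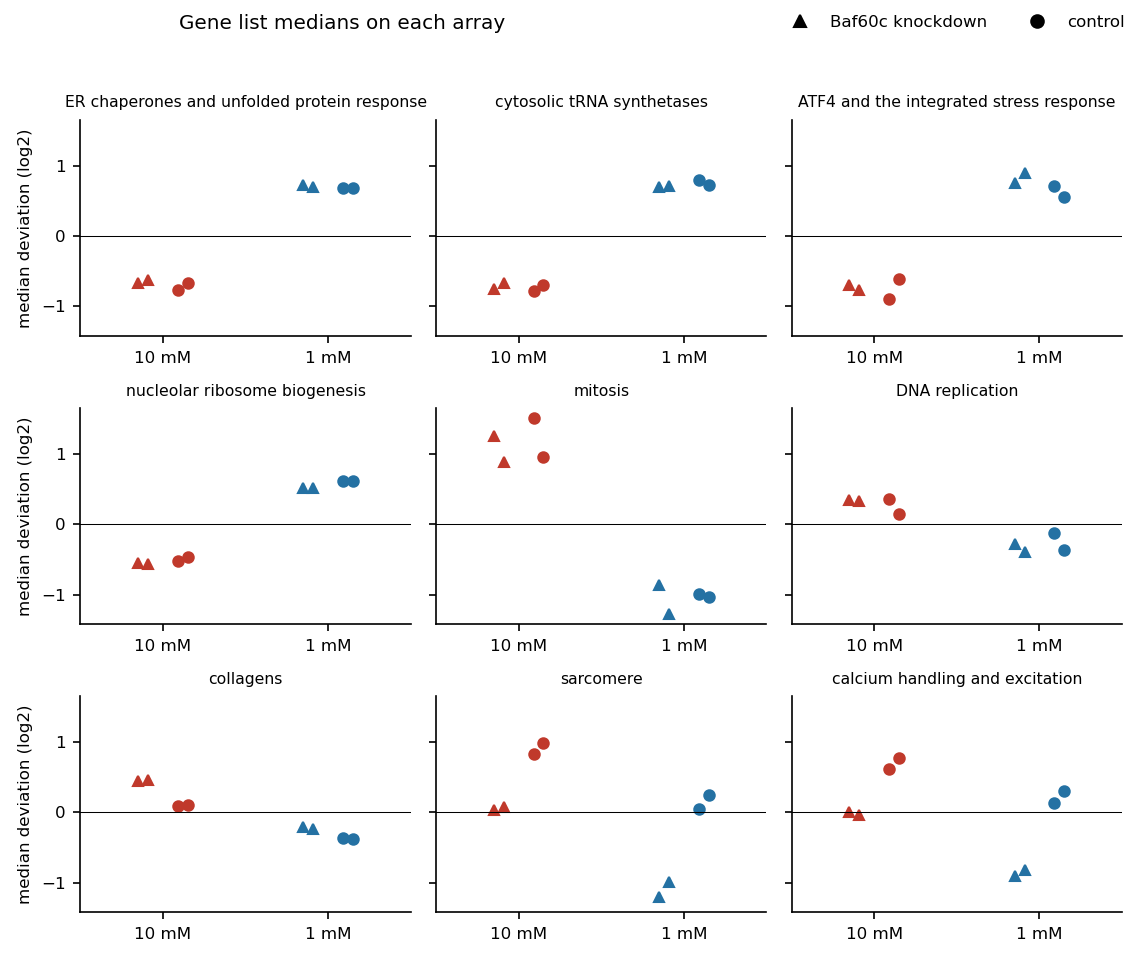
For 9 gene lists, the median over members of the deviation from each gene's mean over 8 arrays (log2), shown for each array at 10 mM (left) and 1 mM (right), with triangles for knockdown and circles for control. In the stress, nucleolar, mitosis and DNA replication lists knockdown and control arrays lay together, while in the sarcomere and calcium lists knockdown arrays lay below control arrays at both glucose levels.

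Muscle structure genes rose with glucose and fell with knockdown, so for them the average rests on the shRNA term of the model. Of 39 sarcomere genes 35 rose, with 0 lower and a median of 0.92. In the same fit 29 of the 39 were called lower in knockdown than in control cells, at a median of -1.0. The 10 mM and 1 mM arrays were free of overlap in 12 of 39, and a model without the shRNA term called 16. Over all genes 34.7% were free of overlap (18.0% in the higher direction), and that model called 33.6%. Actc1, the cardiac actin of developing muscle, read 7.96 and 7.95 in knockdown and 9.35 and 9.17 in control cells at 10 mM, against 6.26 and 5.82 in knockdown and 7.71 and 8.04 in control cells at 1 mM. Knockdown arrays at 10 mM overlapped control arrays at 1 mM, and the average rise was 3.13-fold (1.65 ± 0.16, adjusted p = 8.65e-05). The fast myosin gene Myh4 was at 2.49, with dim 1 mM arrays. Actn2 rose 3.40-fold, the Z-disc gene Ldb3 3.19-fold and Tnnt1 2.49-fold.

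Of 21 genes for calcium handling and excitation 14 rose and 1 fell, at a median of 0.65, with 13 lower after knockdown. The 10 mM and 1 mM arrays were free of overlap in 4 of those that rose and in the 1 that fell. A model without the shRNA term called 6. Both shares are below those of all genes, 34.7% and 33.6%. Casq1, which stores calcium in the sarcoplasmic reticulum, read 7.08 and 7.44 in knockdown and 8.04 and 8.84 in control cells at 10 mM, against 4.65 and 5.13 in knockdown and 6.98 and 7.46 in control cells at 1 mM. The ranges overlapped, and the rise was 3.46-fold (adjusted p = 0.00139). Mrln, a micropeptide inhibitor of the calcium pump, rose by 3.04 with arrays of 5.32 to 6.07 at 10 mM and 2.56 to 2.85 at 1 mM. Stac3 rose 4.86-fold and Trdn 2.99-fold. The slow calcium pump gene Atp2a2 fell 2.04-fold (-1.03 ± 0.10), at 9.84 to 10.04 on the 10 mM and 10.86 to 11.14 on the 1 mM arrays.

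Genes for fusion and for the myogenic programme rose as well. In the fusion and membrane repair list 15 of 19 rose and 2 fell, at a median of 0.73. Mymx, a fusogen, read 4.90 and 5.17 in knockdown and 5.66 and 6.10 in control cells at 10 mM, against 3.51 and 3.39 in knockdown and 3.96 and 3.92 in control cells at 1 mM. It rose 3.39-fold with no overlap, the adhesion gene Jam2 rose 4.6-fold and the second fusogen gene Mymk 1.93-fold, the last with overlapping arrays. Of myogenic transcription factors 10 of 20 rose and 2 fell. Myod1 rose 5.11-fold, with arrays of 6.88 to 7.78 at 10 mM and 4.41 to 5.89 at 1 mM. Mef2c rose 2.51-fold, with overlapping arrays. Myf5 fell 1.84-fold. Markers of undifferentiated myoblasts rose in 5 of 14 and fell in 2, with Cd34 at 1.01 and the chromatin protein gene Hmga2 at -2.0. Energy buffers rose in 7 of 9, with Ckm at 1.16 (overlapping arrays) and Ckb at 1.37. The AMP deaminase gene Ampd3 (-1.10) and the creatine carrier gene Slc6a8 (-0.86) fell.

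Growth factor signals changed by large amounts in single genes. Igf1, a ligand that promotes muscle growth, read 6.54 and 6.4 in knockdown and 6.60 and 6.73 in control cells at 10 mM, against 3.23 and 3.81 in knockdown and 3.41 and 3.30 in control cells at 1 mM. It rose 8.76-fold (3.13 ± 0.15, adjusted p = 3.73e-06). Its binding protein gene Igfbp5 rose 3.25-fold, while Igfbp3 fell 1.98-fold. In the IGF and insulin list as a whole 6 of 13 rose and 1 fell. Among activin pathway and atrophy genes 7 of 16 rose and 3 fell. Inhbb, an activin subunit, rose 4.14-fold and Fst, which neutralises activin and myostatin, 3.13-fold. Fst was also lower after knockdown (-1.78, adjusted p = 0.00292), and its 10 mM knockdown arrays of 4.93 and 5.05 lay beside 1 mM control arrays of 5.03 and 5.21. Klf15, a glucocorticoid-responsive factor of muscle catabolism, read 1.71 to 2.24 at 10 mM, against 4.0 to 4.64 at 1 mM, a change of -2.46 with dim 10 mM arrays. The energy sensor and mTOR list rose in 10 of 25 and fell in 3, with the AMPK subunit genes Prkag3 (1.29) and Prkag2 (1.14) and the mTOR inhibitor gene Deptor (1.03) higher and Akt1s1 (-0.77) lower.

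Secreted and surface signals divided. Of myokines 6 of 14 rose and 5 fell. Ostn, the secreted peptide musclin, a ligand of the natriuretic peptide clearance receptor, read 1.48 and 1.20 in knockdown and 1.35 and 1.51 in control cells at 10 mM, against 6.15 and 6.26 in knockdown and 4.13 and 5.19 in control cells at 1 mM. No 10 mM array came near a 1 mM array, and the 1 mM knockdown arrays were above both control arrays. The change was -4.05 ± 0.35 (adjusted p = 5.64e-05), and the 10 mM arrays were at the lower end of the scale. Il15 rose 3.32-fold and Vegfd 2.39-fold, and Vegfa fell 1.94-fold. Wnt and Notch genes rose in 15 of 31 and fell in 4. Jag1, a Notch ligand, read 6.59 and 6.84 in knockdown and 6.03 and 5.81 in control cells at 10 mM, against 9.14 and 8.93 in knockdown and 8.52 and 8.38 in control cells at 1 mM. It fell 5.37-fold, while the receptor gene Notch2 rose 2.04-fold and the Wnt inhibitor gene Dkk2 was at 1.88, with dim 1 mM arrays. Among chemokines 7 of 16 rose and 3 fell. The receptor gene Cxcr4 rose 6.12-fold and its ligand Cxcl12 2.30-fold, as did the scavenger receptor gene Ackr3 (3.90-fold), while Ccl2 and Ccl7 fell 2.61-fold and 2.42-fold.

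Matrix genes were mostly higher. Collagens rose in 12 of 18 members with 0 lower, at a median of 0.58. Col12a1, which coats collagen fibrils, read 9.99 and 10.08 in knockdown and 9.38 and 9.18 in control cells at 10 mM, against 8.03 and 8.03 in knockdown and 7.87 and 7.70 in control cells at 1 mM. It rose 3.36-fold with no overlap. Col8a1 rose 3.70-fold, Col6a1 2.41-fold and Col1a1 2.25-fold. Other matrix proteins rose in 17 of 29 and fell in 3, among them Cilp (13.3-fold, 7.36 to 8.0 at 10 mM and 3.63 to 4.54 at 1 mM), Ccn1 (3.20-fold), Tnc (2.60-fold) and, lower, the basement membrane gene Nid1 (-1.18). Adamts16, a matrix protease, rose 13.8-fold. Smooth muscle and fibroblast markers rose in 10 of 14 with 0 lower, including Dpt (2.35), Pdgfra (1.84) and Acta2 (1.03). As a mean per array that marker list read 6.4 to 6.77 at 10 mM and 5.77 to 5.99 at 1 mM, and its part in the matrix changes was not tested.

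Lists of energy metabolism had calls in both directions, as all tested genes did. In glycolysis and pyruvate entry (51.9% called) 12 of 27 rose and 2 fell, at a median of 0.40. The muscle enzyme genes Pgam2 (1.25) and Eno3 (0.90, with overlapping arrays) and the pyruvate dehydrogenase regulators Pdk4 (1.07) and Pdp1 (0.98) were higher. The 2 lower ones were Hk2 and Pfkfb2 (-0.39). Fatty acid oxidation and storage (55.2% called) rose in 10 of 29 and fell in 6. Cpt1a, which brings fatty acids into mitochondria, read 8.68 and 8.53 in knockdown and 8.38 and 8.35 in control cells at 10 mM, against 6.96 and 7.02 in knockdown and 6.81 and 6.88 in control cells at 1 mM. It rose 2.97-fold, and the uptake receptor gene Cd36 3.0-fold. For Cd36 the 10 mM knockdown arrays (4.40 and 4.84) lay below the 1 mM control arrays (5.74 and 5.55), and it was lower after knockdown (-2.61). Acot2, a mitochondrial thioesterase, went the other way by 13.9-fold, at 7.99 to 8.46 on the 10 mM and 11.86 to 12.13 on the 1 mM arrays. In glycogen metabolism 3 of 13 rose and 2 fell (38.5% called, against 38.8% of all genes). Stbd1, which tethers glycogen to membranes, fell 4.6-fold. The TCA cycle (42.9% called) rose in 6 of 21 and fell in 3, with Ogdh at 0.81 and the anaplerotic enzyme gene Pcx at -1.10. Of nuclear subunits of oxidative phosphorylation 10 of 36 rose and 2 fell (33.3% called). Sterol and fatty acid synthesis (34.8% called) fell in 6 of 23 and rose in 2, with Mvd at -1.24 and Scd1 at 0.65. The shares called in the glycogen, TCA, oxidative phosphorylation and sterol lists thus lay near or below that of all genes.

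Some lists had fewer calls than the background share. The proteasome had 16.1% of 31 members called, the mitochondrial ribosome 12.9% of 31 and BAF complex subunits 17.6% of 17, against 38.8% of all genes. Among BAF genes the ATPase gene Smarca2 rose by 0.75 and Pbrm1 by 0.47. Other lists, from the circadian clock to the matrix proteases below, had more calls than the background share and divided by direction. Circadian clock genes (58.8% called) rose in 4 of 17 and fell in 6, with Ciart (-1.79), Bhlhe41 (1.08) and Per3 (1.03) the largest of those named. Genes of lysosomes and autophagy (51.9% called) fell in 10 of 27 and rose in 4, with Gabarapl1 at -0.83. Hypoxia genes (68.8%) rose in 5 of 16 and fell in 6, among them Bnip3 (0.82). Immediate early genes (56.5%) rose in 7 of 23 and fell in 6, with the transcription factor genes Klf2 (1.12) and Klf4 (-1.32) opposite. Matrix proteases and their inhibitors (66.7%) rose in 8 of 21 and fell in 6, with Mmp14 at 0.99 and Mmp11 at -1.29. Branched-chain amino acid breakdown was near the background share, with 42.1% called against 38.8%. It rose in 5 of 19 and fell in 3, with Acat1 at 1.32 and Bcat2 at -0.92. Genes of the neuromuscular junction, at 27.3% called, were below that share. Of 11 members 3 rose and 0 fell, among them the agrin receptor gene Lrp4 (1.15) and the receptor subunit gene Chrng (0.74, with overlapping arrays).

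Several of the largest changes lay outside the lists. Car6, a secreted carbonic anhydrase, read 3.42 and 3.59 in knockdown and 3.03 and 3.08 in control cells at 10 mM, against 8.57 and 8.77 in knockdown and 8.56 and 8.23 in control cells at 1 mM. It fell 38.1-fold (-5.25 ± 0.11, adjusted p = 7.16e-08). The peroxisomal oxidase gene Acox2 was at -3.73, with dim 10 mM arrays. The adrenomedullin family gene Adm2 fell 9.78-fold, with 10 mM arrays of 2.68 to 3.27 that lie near the bound for dim. Tenm4 fell 9.47-fold and the alcohol dehydrogenase gene Adh7 9.40-fold. Among rises were the nuclear transport protein gene Ranbp3l (11.2-fold), Map3k7cl (9.91-fold), the dynein chain gene Dync1i1 (3.16 on the log2 scale, with dim 1 mM arrays), the cadherin gene Cdh18 (8.69-fold) and the calcium pump gene Atp2b4 (7.74-fold). Cd200, a surface glycoprotein, rose 8.42-fold on average, made up of 4.03 in knockdown and 2.12 in control cells on the log2 scale. That difference of 1.91 did not pass the interaction test (adjusted p = 0.289). The rule that named these genes picked them for large changes.

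The promoter motifs shown above were counted over all genes, in 300 bases from 250 before to 50 after each start. Of 13308 tested genes 10345 had a RefSeq promoter, and 2010 of them had several, any of which was counted. ERSE (19 letters) was found in 8 of 21 ER chaperone genes with a promoter (38.1%) and in 0.155% of all genes. Of the 16 tested genes that hold it 13 fell, 0 rose and 3 were not called. The 16 include the 8 of the chaperone list. Outside that list those that fell were Syvn1, Alg12 and genes not named here. CARE cores were found in 7 of 21 ATF4 list genes (33.3%) and in 4 of 11 cytosolic tRNA synthetase genes (36.4%), against 2.89% of all genes. They were found in 0 of 12 genes for serine, one-carbon and proline synthesis, the list that fell by the same median as the ATF4 list. Among all genes with the core, 26.1% were lower and 15.7% higher, against 17.9% and 20.9% of all genes with a promoter. CHR letters were found in 24 of 32 mitosis genes (75%) and 14.1% of all genes, and in 13.8% of DNA replication genes. The antioxidant response element (ARE, TGACNNNGC) was in 37.5% of NRF2 list genes and 16.7% of all, and genes that hold it were lower in 19.2% and higher in 20.5%, close to the shares of all genes. Genes with a ChoRE match were lower in 21.8% and higher in 18.4%, and genes with the CHR letters lower in 16.5% and higher in 24.7%. The E-box CACGTG, a site for Myc and Max, was in 25% of nucleolar genes and 11.4% of all, and genes that hold it were lower in 27.1% and higher in 14.7%. The E-box letters can also lie inside a ChoRE match, since its letters allow CACGTG. A match describes letters in this window and is not a measured site.

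**Figure D5:**
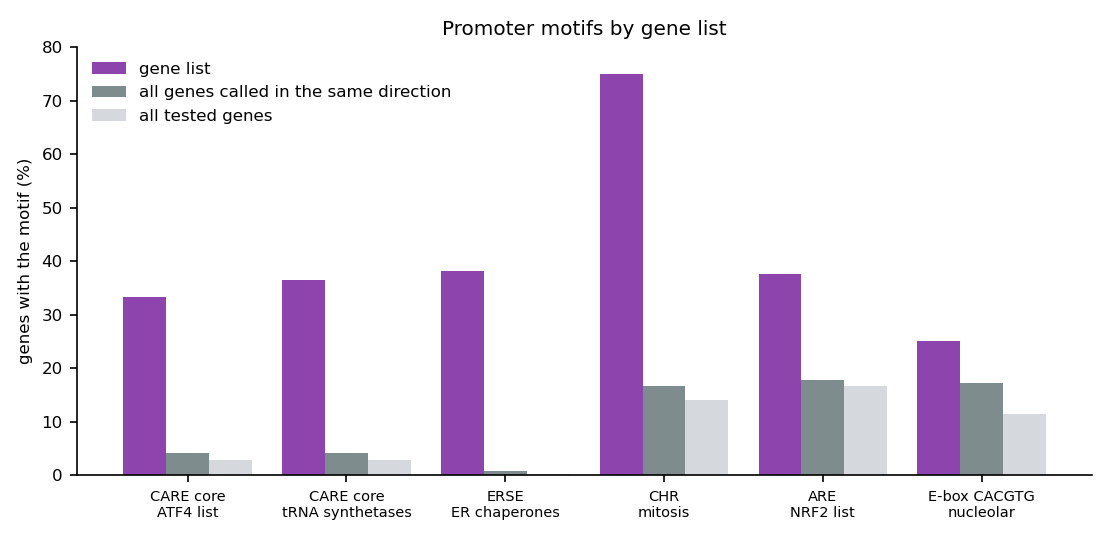
Share of genes (%) whose promoter holds each motif, for a gene list, for all genes called in the same direction as the list (lower, or higher for mitosis) and for all tested genes. The lists stand at 33.3%, 36.4%, 38.1%, 75%, 37.5% and 25%, each above the bar for all tested genes.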

How the data were processed

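RNA from 8 C2C12 myotube cultures was read on 8 arrays, 2 for each combination of shRNA and glucose. Groups and replicate numbers were taken from the sample titles. The authors deposited log2 expression values per probe set, which the submitters' processing notes credit to RMA and the affy package; the sources used here give neither version. Deposited values ran from 0.0556 to 13.6, and no detection call accompanies them, so values near the lower end may be background. Of 41345 probe sets 23521 had 1 gene symbol in the platform annotation, 1814 had several and 16010 had none.

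For each of 22180 genes the single-gene probe set with the highest mean was kept. Genes dimmer than the 40th percentile of these means (2.3 in log2 units) were dropped, and 13308 were tested. A model with glucose and shRNA was fitted with limma 3.58.1 in R 4.3.3, with a two-sided moderated test and Benjamini-Hochberg adjustment over all tested genes. Calls needed an adjusted p below 0.05. It had 5 residual degrees of freedom. The comparisons within knockdown and within control cells and their difference came from a fit with 1 mean per group. The procedure was tested on simulated data. Deviations of same-numbered arrays from their group means correlated at -0.038 to 0.108 across genes. Replicate numbers thus showed no clear mark of shared cultures, which 2 arrays per group cannot exclude.

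The members of the 61 gene lists (1160 genes tested) and the rule for genes named in the text were chosen with earlier results of these data known. The rule took in each direction the 20 called genes of largest change whose glucose levels did not overlap and whose higher mean was at least 5, skipping predicted and small RNA genes, up to 6 called members of each list with the smallest p, the glucose sensing list, up to 8 genes per direction called on average alone, up to 3 members that moved against their list's majority, and Txnip, Arrdc4, Slc7a11, Hk2, Slc2a1, Slc2a4 and the probe set shared by Smarcd3 and Chpf2. Outside it, Thbs1 and 6 genes with opposite single calls were named after their values were seen, and 5 further genes are named only as myotube markers. Lists are described by counts and medians, with no test of the list. Promoter sequences are those of RefSeq (GRCm38.p6), which may differ from the annotation behind the arrays. Alternatives covered the filter, scaling, variance prior, model, replicate block, probe set choice and each left-out array.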

Additional observations from a re-analysis of the deposited data

Results flagged for a closer look

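In 28 of 476 sets of 4 arrays (238 genes at 2 glucose levels) 1 array stood apart from the other 3 by Dixon's criterion, which chance meets in about 1 of 20 sets. The array that stood apart was control replicate 1 at 10 mM for 5 genes, control replicate 2 at 10 mM for 4, knockdown replicate 1 at 10 mM for 2 and knockdown replicate 2 at 10 mM for 4. At 1 mM it was control replicate 1 for 3, control replicate 2 for 1, knockdown replicate 1 for 4 and knockdown replicate 2 for 5.

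Among the 10 mM arrays, control replicate 1 was lowest for Acat1 at 9.38, Ifit1 at 4.98, Irf1 at 5.74 and Pbrm1 at 8.97, and highest for Cdkn2d at 6.96. Control replicate 2 was lowest for Bnip3 at 8.19, Gsta4 at 8.38 and Pgm3 at 6.02, and highest for Dnajc2 at 7.83. Knockdown replicate 1 was lowest for Stbd1 at 5.5 and highest for Ppp1r13l at 5.57. Knockdown replicate 2 was lowest for Hk2 at 7.95, Mlxipl at 1.72 and Mxi1 at 7.7, and highest for Map3k7cl at 7.0.

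Among the 1 mM arrays, control replicate 1 was lowest for Il15 at 4.22 and Psph at 7.1, and highest for Hk2 at 9.06. Control replicate 2 was lowest for Dut at 6.93. Knockdown replicate 1 was lowest for Srxn1 at 6.52 and Thbs1 at 9.26, and highest for Alg2 at 8.54 and Ppp1r15a at 8.09. Knockdown replicate 2 was lowest for Cxcl12 at 7.27, Gnpnat1 at 8.95, Nars at 10.92, Sec61a1 at 10.54 and Slc6a8 at 10.37. The widest gap was that of Ifit1, whose other 10 mM arrays read 5.9 to 6.03.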

How the results depend on the processing

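The count of genes called on average, 5158, ran from 4315 to 5543 over all alternatives and from 4315 to 4879 with 1 array left out. With the replicate block, which the design does not require, it was 4965, and the block ended the call of none of the 238 genes named in the text. Without the shRNA term it was 4474, and calls were lost for 18 of them, including Actn2, Casq1, Cd36, Chrng, Ckm, Eno3, Fst, Igfbp3, Kdelr3, Mef2c, Mymk and Trdn. That setting also took the IGF and insulin list to 4 called of 13, against 7 with the term. Counts within 1 shRNA group depended more on single arrays. In knockdown cells they ran from 1903 to 3185 (1903 without replicate 1 and 2068 without replicate 2 at 10 mM, against 3342 with all). In control cells they ran from 2046 to 3251 (2193 and 2046 without replicates 1 and 2 at 1 mM, and 2060 without replicate 2 at 10 mM, against 3372 with all). With 1 array left in a group its spread is taken from the others, and fewer arrays lower the power of each such fit. The interaction called 1 gene with an intensity trend in the prior and 0 under the other settings run. Higher genes made up 54.4% of calls, 45.3% with each array centred on its median and 49.4% after quantile normalization, and the median of all genes stayed between -0.063 and 0.022. With 1 array left out, Cdk4, Kdelr1, Mlx, Mlxip, Mlxipl, Mnt, Ost4, Pgm3, Arrdc4 and Taldo1 each lost their call at least once, and Klf11 gained one at 0.40 (adjusted p = 0.0241) without control replicate 1 at 1 mM. Slc2a3 lost its call after quantile normalization (adjusted p = 0.0846), and Arrdc4, Kdelr1 and Ost4 lost theirs with centred arrays. The stricter filter left 209 of the 238 genes to test. No called gene named in the text changed sign. The median of the Myc network list was 0.36, and -0.32 with the filter at the 60th percentile. The glucose sensing median of -0.06 and that of circadian genes (0.03) changed sign under several settings. Values under a log2 level of about 3 carry the least information on change.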
